A study of Canis lupus familiaris with 10 samples.

Results

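The miR-29 family comprised 3 of the 320 miRNAs listed in the deposited small RNA sequencing table, cfa-miR-29a, cfa-miR-29b and cfa-miR-29c, selected by their names in that table. Small RNA was sequenced from snap-frozen nodes of 6 dogs that had diffuse large B-cell lymphoma (DLBCL) and 4 healthy dogs, with 1 library per dog. The DLBCL nodes were peripheral nodes biopsied under anesthesia from pet dogs of several breeds and both sexes, diagnosed by histopathology and B-cell immunostaining. The healthy nodes came from purpose-bred young female hound crosses and were collected after euthanasia. Origin, breed, sampling and diagnosis changed together and cannot be told apart. Sex was not balanced between the groups, some of the DLBCL dogs were castrated or neutered, and the study lists no ages for the DLBCL dogs. All nodes were whole tissue, so fewer cells of a type and less miRNA per cell cannot be told apart either.

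miRNAs are short RNAs that guide the silencing complex to messenger RNAs, chiefly through a seed near their 5′ end. The miR-29 members carry the same seed and differ outside it, miR-29a and miR-29c by only a single base. The family is known for targeting the de novo DNA methyltransferases DNMT3A and DNMT3B, the survival factor MCL1, the cell cycle kinase CDK6, the lymphoid oncogene TCL1A and many collagens. The transcription factors MYC and NF-kB are known to repress it, and low miR-29 is a known feature of human chronic lymphocytic leukemia and mantle cell lymphoma. In the RefSeq annotation of the dog assembly UU_Cfam_GSD_1.0, used here only for names and neighbours, miR-29a had 1 gene, miR-29b had 2 and miR-29c had 2. MIR29B-1 lay next to MIR29A with 0 genes between them, and MIR29B-2 lay next to MIR29C-2, also with 0 genes between, so that reads named miR-29b pool the products of both clusters.

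The family kept the same order in every node but its balance differed between the groups. miR-29a was the most abundant member, miR-29b followed and miR-29c was the least abundant in 10 of 10 libraries. Within a library, miR-29c was 4.31 times and miR-29b 2.03 times as abundant relative to miR-29a in DLBCL as in healthy nodes, with no overlap between the groups. The levels of the single members overlapped between the groups, and none of the 3 passed the edgeR test. The largest difference in level was that of miR-29c, with a log2 fold change of 1.92 ± 0.68 (SE, n = 6 and 4).

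Reads assigned to miRNAs were many but unequal. They numbered between 10686441 and 25784861 in the DLBCL libraries and between 30432969 and 34709421 in the healthy libraries, without overlap. The study's totals of clean reads, before mapping, did overlap between the groups. Levels are given as CPM, reads scaled to a common library size after adjustment by the trimmed mean of M values (TMM), whose factors ranged from 0.507 to 2.03. In the study's read statistics, the libraries DLBCL 4 and DLBCL 6 fell with all 4 healthy libraries into the lower range of the share of bases at Q30, a base quality score, while the other 4 DLBCL libraries were higher. The lymphoid miRNAs miR-150, miR-142, miR-155 and miR-342 were present in every library, with a summed level from 8119 to 21051 CPM in DLBCL and from 10973 to 27698 CPM in healthy nodes. Of the 21 pairs of libraries within a group, none differed by as little as sampling noise (lowest chi-square per degree of freedom 1865).

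miR-29a ranked 42nd by mean CPM among the 320 miRNAs in DLBCL and 30th in healthy nodes. Its level in DLBCL was lowest in DLBCL 3 at 688 CPM, had a median of 1464 CPM and was highest in DLBCL 4 at 2930 CPM. In the healthy libraries 2 to 5 it was 1245, 2223, 1918 and 2721 CPM. The groups overlapped through most of their range, and the mean was 1589 ± 744 CPM in DLBCL (SD, n = 6) and 2027 ± 618 CPM in healthy nodes (SD, n = 4). The log2 fold change was -0.35 (95% confidence interval -1.23 to 0.53), with an edgeR adjusted p of 0.611. The sign was not stable: with libraries scaled to total miRNA reads the value was 0.41 (edgeR adjusted p = 0.667). That scaling also moved the median over the 247 miRNAs tested from 0.13 to 0.82, so that miR-29a lay below the median under both.

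miR-29b, which carries both clusters' products, ranked 69th in DLBCL and 75th in healthy nodes. Its level in DLBCL was lowest in DLBCL 3 at 199.6 CPM, had a median of 326 CPM and was highest in DLBCL 4 at 730.3 CPM. In the healthy libraries 2 to 5 it was 124, 254, 275 and 391 CPM. Only DLBCL 4 and DLBCL 6, at 730.3 and 590.2 CPM, lay above all healthy libraries. The mean was 406 ± 209 CPM in DLBCL (SD, n = 6) and 261 ± 109 CPM in healthy nodes (SD, n = 4). The log2 fold change was 0.64 (95% confidence interval -0.40 to 1.67), with an edgeR adjusted p of 0.382.

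miR-29c ranked 134th in healthy nodes and higher in DLBCL. Its level in DLBCL was lowest in DLBCL 3 at 31.9 CPM, had a median of 45.8 CPM and was highest in DLBCL 4 at 213 CPM. In the healthy libraries 2 to 5 it was 10.1, 19.0, 20.1 and 38.5 CPM. The overlap came from healthy library 5, whose 38.5 CPM exceeded 3 of the DLBCL libraries, at 31.9, 36.2 and 38.3 CPM. The mean was 83.0 ± 72.6 CPM in DLBCL (SD, n = 6) and 21.9 ± 12.0 CPM in healthy nodes (SD, n = 4). These levels rested on 177 to 6033 reads, and the smallest count, in healthy library 2, had an exact Poisson 95% interval of 152 to 205, which covers counting error only.

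**Figure D1:**
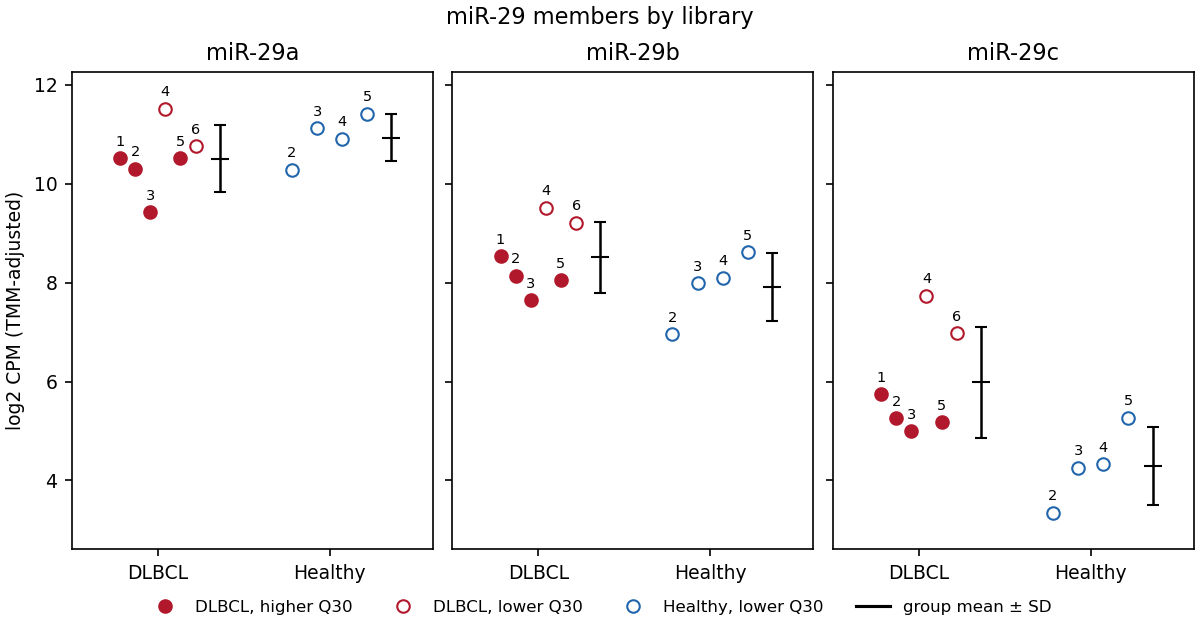
Each point is the log2 CPM (vertical axis, TMM-adjusted, prior count of 2) of a miR-29 member in 1 library, numbered as labelled, with the 6 DLBCL libraries in red and the 4 healthy libraries in blue, filled where the Q30 share was higher, and bars give the group mean ± SD. DLBCL 4 and DLBCL 6 are the highest DLBCL libraries in every panel, and the groups overlap for all 3 members.

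The test of miR-29c depended on the tool. Its log2 fold change of 1.92 (95% confidence interval 0.45 to 3.40) ranked 28th from the top among the 247 miRNAs tested and had an edgeR p of 0.0148, with an adjusted p of 0.109. Of the 3 members, 0 were called at an adjusted p under 0.05 with a log2 fold change beyond 1 in either direction. miR-29c alone had an unadjusted edgeR p under 0.05, beside 26.7% of all miRNAs tested. Of the miRNAs tested, 5.67% were called, 3.64% higher and 2.02% lower in DLBCL (9 and 5 miRNAs, or 22 and 1 when scaled to total miRNA reads). The CPM of 0 of the 3 members was free of overlap between the groups, beside 13.0% of the miRNAs tested (6.88% higher and 6.07% lower in DLBCL). DESeq2, which called 17.2% of the miRNAs it tested, called miR-29c higher at 1.96 (adjusted p = 0.0169). Weighting the libraries by quality in limma voom, which called 46 of the 247 miRNAs tested, gave a call as well, at 1.71 (adjusted p = 0.0176). miR-29a and miR-29b were called by neither tool.

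The libraries DLBCL 4 and DLBCL 6 weighed on the size of this difference. Without both of them, the log2 fold change of miR-29c was 0.92 (edgeR adjusted p = 0.217), and without DLBCL 4 alone it was 1.42 (adjusted p = 0.121). Within the lower Q30 range, where only these DLBCL libraries stand beside the 4 healthy ones, edgeR called miR-29c higher at 2.94 (adjusted p = 0.0119). In that fit it called 46 of the 259 miRNAs tested. With the Q30 range as a covariate the value was 2.95 (edgeR adjusted p = 0.0188). No healthy library was in the higher range, so the covariate fit compares the same libraries again. It does not adjust the difference over all 6 DLBCL libraries for base quality. miR-29b was at 1.33 within the lower Q30 range (adjusted p = 0.0683) and at 0.14 without DLBCL 4 and 6, while miR-29a was at 0.19 (adjusted p = 0.785) and at -0.72.

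**Figure D2:**
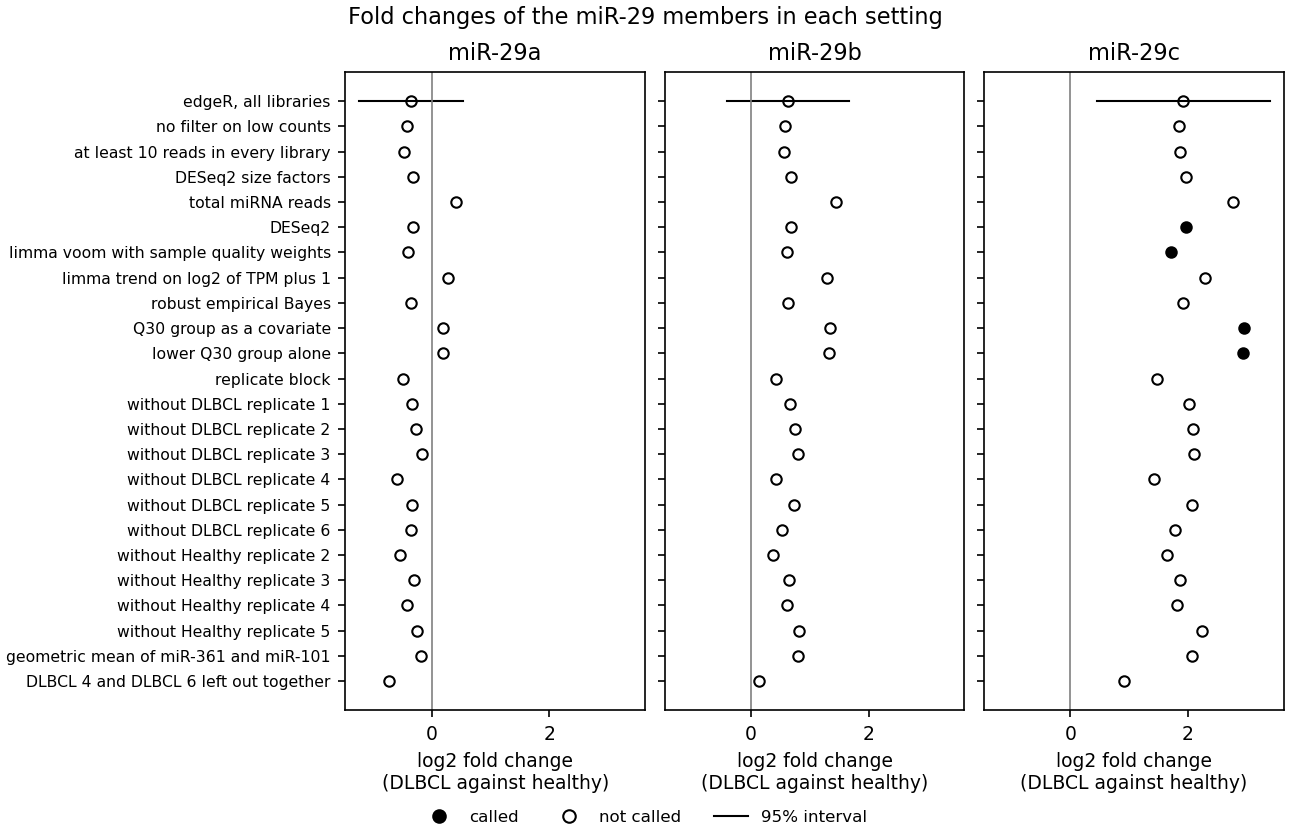
Each point is the log2 fold change (horizontal axis, DLBCL against healthy) of a miR-29 member under 1 analysis setting (vertical axis), filled where the member was called, and the line gives the 95% confidence interval of the edgeR fit to all libraries. miR-29c lies between 0.92 and 2.95 and is called in 4 settings, miR-29b stays above 0, and miR-29a lies on both sides of 0.

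The ratio between members within a library does not depend on how libraries are scaled. Reads of miR-29c were lowest in DLBCL 5 at 2.47% of the reads of miR-29a, had a median of 4.14% and were highest in DLBCL 6 at 7.29%. In the healthy libraries 2 to 5 they were 0.809%, 0.855%, 1.05% and 1.42%. Every DLBCL library lay above every healthy library, also DLBCL 2, 3 and 5, in which the level of miR-29c itself was within the healthy range. On the log2 scale the ratio was -4.53 ± 0.65 in DLBCL (SD, n = 6) and -6.64 ± 0.37 in healthy nodes (SD, n = 4), a difference of 2.11 ± 0.32 (SE). The two-sided exact permutation test gave p = 0.00952 (adjusted p = 0.0127 over 4 tests), which is the smallest p that 6 against 4 libraries allow.

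Reads of miR-29b moved in the same direction against miR-29a. They were lowest in DLBCL 5 at 18.1% of the reads of miR-29a, had a median of 25.1% and were highest in DLBCL 6 at 34.2%. In the healthy libraries 2 to 5 they were 9.98%, 11.4%, 14.3% and 14.4%. The groups again did not overlap, and the log2 ratio differed by 1.02 ± 0.18 (SE, exact permutation p = 0.00952, adjusted p = 0.0127).

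miR-29c was also more abundant relative to miR-29b in DLBCL. Its reads ranged from 13.6% of those of miR-29b in DLBCL 2 to 29.1% in DLBCL 4, with a median of 15.2%. In the healthy libraries 2 to 5 they were 8.11%, 7.47%, 7.30% and 9.87%. The log2 ratio differed by 1.09 ± 0.21 (SE, exact permutation p = 0.00952, adjusted p = 0.0127), a fold of 2.13, again with no overlap. The third ratio follows from the other two, so that the 3 tests are not independent. All 3 ratios were free of overlap, where 13.6% of the 24753 pairs of tested miRNAs with a read in every library were.

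**Figure D3:**
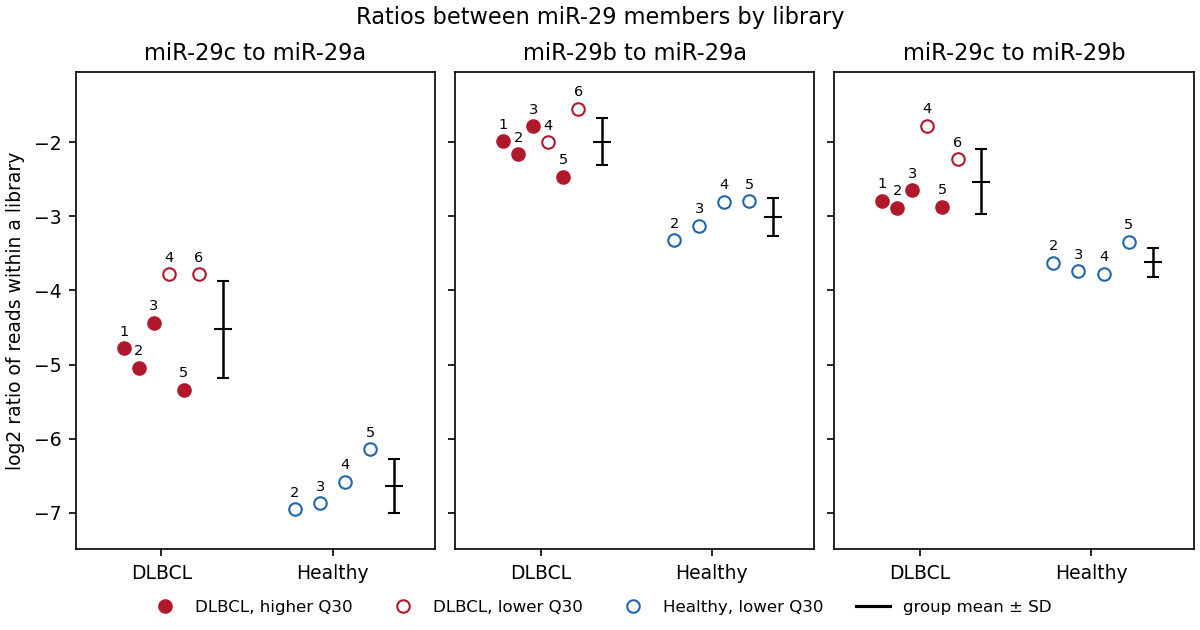
Each point is the log2 ratio of the reads of 2 miR-29 members (vertical axis) in 1 library, numbered as labelled, with the 6 DLBCL libraries in red and the 4 healthy libraries in blue, filled where the Q30 share was higher, and bars give the group mean ± SD. Every DLBCL library lies above every healthy library in all 3 panels, with mean differences of 2.11, 1.02 and 1.09.

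The size of the ratio differences was also read without the libraries that stood apart. Without DLBCL 4 and DLBCL 6 the log2 ratio of miR-29c to miR-29a differed by 1.74 and that of miR-29c to miR-29b by 0.82. Leaving out any single library gave 1.96 to 2.27 for miR-29c to miR-29a. All 3 ratios stayed past the threshold in these fits, but that outcome was fixed in advance. Groups without overlap stay apart when libraries are removed and give the smallest p possible, so these calls add no support. Within the lower Q30 range, miR-29c was at 7.26% and 7.29% of miR-29a in the DLBCL libraries and at no more than 1.42% in the healthy ones, a log2 difference of 2.85 (exact permutation p = 0.133, the smallest that 2 against 4 libraries allow). TMM factors ranged from 0.698 to 2.03 in DLBCL and from 0.507 to 1.11 in healthy libraries, and they do not enter a ratio of reads within a library. The number of reads assigned to miRNAs was lower in every DLBCL library than in every healthy one. Its part in the ratios cannot be told apart from that of the diagnosis. Because miR-29a and miR-29c differ by a single base, a read error or the treatment of ambiguous reads in the counting could move reads between them, and the deposited counts do not show how such reads were assigned.

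The summed level of the family did not separate the groups. The 3 members together were at 2079 ± 1008 CPM in DLBCL (SD, n = 6) and 2310 ± 734 CPM in healthy nodes (SD, n = 4). The log2 difference was -0.23 ± 0.38 (SE, exact permutation p = 0.590), and the groups overlapped, with 920 to 3874 CPM in DLBCL and 1379 to 3150 CPM in healthy nodes. The composition of the family differed instead, as the ratios above require. miR-29a made up 76.9% ± 4.24 of the family's reads in DLBCL and 88.1% ± 1.88 in healthy nodes, and miR-29c 3.57% ± 1.44 and 0.905% ± 0.226 (SD, n = 6 and 4). The share of miR-29b had a median of 19.2% in DLBCL and 11.3% in healthy nodes.

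Within DLBCL the members varied together. Over the 6 DLBCL libraries, the log2 CPM of miR-29b and miR-29c had a Pearson's r of 0.98 (exact permutation p = 0.00278, adjusted p = 0.00833 over 3 pairs) and a Spearman's rho of 1 (p = 0.00278, exact, adjusted p = 0.00833). For miR-29a and miR-29b, r was 0.90 (exact permutation p = 0.00833, adjusted p = 0.00833) and rho 0.94 (p = 0.0167, exact, adjusted p = 0.0167). For miR-29a and miR-29c, r was 0.85 (exact permutation p = 0.00833, adjusted p = 0.00833) and rho 0.94 (p = 0.0167, exact, adjusted p = 0.0167). Without the 2 libraries farthest from the median, r was 0.96, 0.84 and 0.86 in the same order, over 4 libraries. Within the higher Q30 range alone, which held 4 DLBCL libraries and so too few for a test, r was 0.96 for miR-29b and miR-29c, 0.84 for miR-29a and miR-29b and 0.67 for miR-29a and miR-29c. The lower range held 2 DLBCL libraries, too few for a value.

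DLBCL 4 and DLBCL 6 were the top libraries for every member. In them miR-29a averaged 2328 CPM against 1220.0 CPM in the other 4 DLBCL libraries, miR-29b 660.2 against 279 CPM and miR-29c 169 against 39.9 CPM. The log2 difference between these sets was 0.94 for miR-29a, 1.27 for miR-29b and 2.06 for miR-29c, each with an exact permutation p of 0.133. DLBCL 4 and 6 also had the highest TMM factors, 1.75 and 2.03. The red blood cell miRNAs miR-451, miR-144 and miR-486 were all 3 measured and none was at 0 in any library. Their sum was lower in DLBCL 4 and 6, at 5171 and 9429 CPM, than in the other DLBCL libraries, at 24661 to 35566 CPM. In healthy nodes the sum was 808 to 1070 CPM. It rested mostly on miR-451, whose mean in DLBCL was 18822 CPM, against 11.6 CPM for miR-144. By itself, miR-144 was highest in DLBCL 6, at log2 CPM 4.61, and was at 3.64 in DLBCL 4. In the other DLBCL libraries miR-144 ranged from 1.28 to 4.16. The stromal and vascular miRNAs summed to 29268 and 37740 CPM in DLBCL 4 and 6, against 37845 to 89365 CPM in the other DLBCL libraries. Most of this sum came from miR-143 and miR-10b, with DLBCL means of 31545 and 19313 CPM, and the list did not move alike. Its member miR-126 was highest in DLBCL 4 and 6, at log2 CPM 7.34 and 7.54, against 3.16 to 6.65 in the other DLBCL libraries. Also, miR-145 was highest in DLBCL 4, and miR-199 and miR-152 in DLBCL 6. The part of red blood cells or stroma in the miR-29 levels was not tested.

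The miRNAs most like each member across the DLBCL libraries were found among the 246 others tested, as a description over 6 libraries that share the same scaling. For miR-29a they were miR-216a (r = 0.97), miR-217 (r = 0.96) and miR-6516 (r = 0.96), with miR-29b in 12th place and miR-29c in 24th. The first 3 fell close to 0 within DLBCL, with lowest levels of 0.0471, 1.04 and 0.377 CPM in that order. Their r values therefore lean on few reads. For miR-29b they were miR-196b (r = 0.98), miR-29c (r = 0.98) and miR-340 (r = 0.97). For miR-29c they were miR-29b (r = 0.98), miR-340 (r = 0.98) and miR-16 (r = 0.97). Likeness within DLBCL did not carry over to the comparison of the groups: miR-340 had a log2 fold change of -0.19 and miR-16 of -0.27, beside the 1.92 of miR-29c.

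miR-216a and miR-217, together with miR-216b, are enriched in exocrine pancreas. All 3 were measured and none was at 0 in any library, and their sum was 914 to 1950 CPM in healthy nodes and 17.5 to 662 CPM in DLBCL, where DLBCL 4 held the highest value, so that the groups did not overlap. DLBCL 6, also high in miR-29, had a sum of 32.3 CPM. Of the other marker lists, the stromal and vascular miRNAs summed to 29268 to 89365 CPM in DLBCL and 41185 to 80581 CPM in healthy nodes, and the myeloid miR-223 was at 3.95 to 88.3 CPM and 16.9 to 38.6 CPM. The 4 skeletal muscle miRNAs summed to 9.42 to 360 CPM and 16.3 to 76.5 CPM, with miR-133b at 0 in some libraries, and the 6 epithelial miRNAs to 13.0 to 127 CPM and 10.6 to 26.5 CPM, with 4 of them at 0 in some libraries. Each of these 4 sums overlapped between the groups. The part of any of these cell types in the miR-29 levels was not tested.

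miR-29c served in the study's RT-qPCR as a reference together with miR-361 and miR-101, which makes its variation between libraries of interest. In the sequencing data the coefficient of variation of CPM over the 10 libraries was 107.6% for miR-29c, 52.9% for miR-29b and 39.5% for miR-29a, with a median of 70.1% over the miRNAs tested. miR-361 and miR-101 were at 18.4% and 18.8%. Ordered from the least variable of the 247, miR-361 was 2nd, miR-101 3rd, miR-29a 35th, miR-29b 72nd and miR-29c 207th. The highest level of miR-29c was 21.1 times its lowest, against 1.69 times for miR-361 and 1.76 times for miR-101.

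miR-29c varied more than both other references under another scaling and within each group. Scaled to total miRNA reads, the coefficient of variation was 142% for miR-29c, 46.2% for miR-361 and 58.5% for miR-101. Within DLBCL it was 87.4%, 11.7% and 21.7%, and within healthy nodes 54.5%, 22.2% and 16.5%, in that order. Neither miR-361, with a log2 fold change of -0.24 (edgeR adjusted p = 0.707), nor miR-101, with -0.03 (adjusted p = 0.968), passed the test, and with total miRNA reads they were at 0.51 and 0.72, below the median of 0.82. Set against the mean log2 level of both, miR-29c was at -2.32 ± 1.10 in DLBCL (SD, n = 6) and -4.14 ± 0.69 in healthy nodes (SD, n = 4), and only healthy library 5, at -3.16, reached the range of DLBCL, whose lowest value was -3.39. The values above are read counts and not PCR cycles. By PCR cycles, the study ranked miR-29c among the most stable of its candidate references. In the study's PCR comparison of the groups, miR-29c was higher in DLBCL but did not pass the FDR threshold. It was itself part of the reference there. How miR-29c varied in the PCR was not analysed here.

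**Figure D4:**
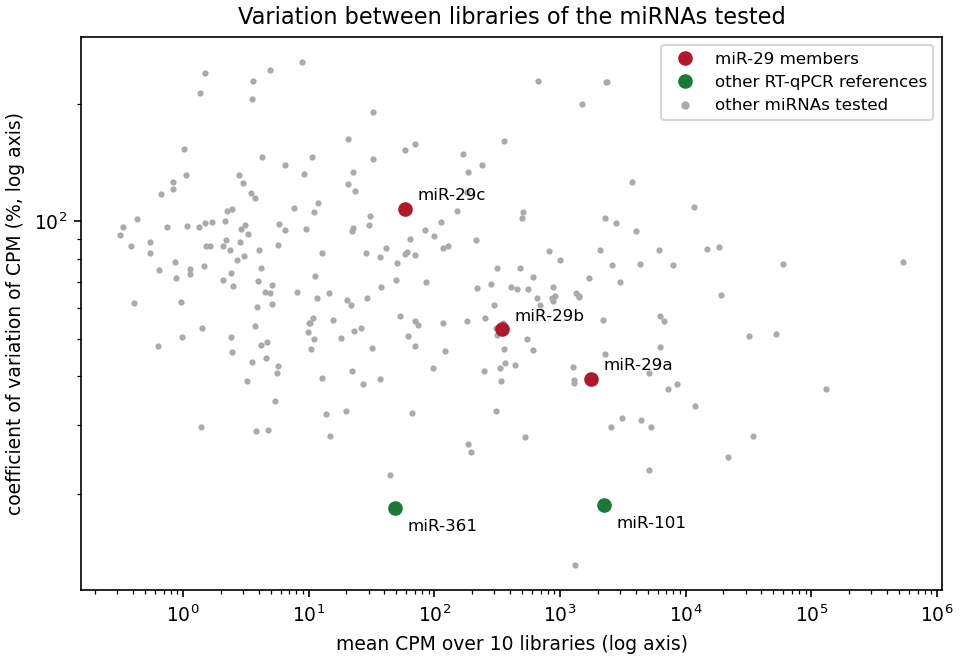
Each point is 1 of the 247 miRNAs tested, with its mean CPM over the 10 libraries on the horizontal log axis and the coefficient of variation of its CPM in percent on the vertical log axis, with the miR-29 members in red and miR-361 and miR-101 in green. miR-361 and miR-101 lie near the bottom at 18.4% and 18.8%, and miR-29c lies near the top at 107.6%.

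Other miRNAs that MYC is known to repress in B-cell lymphoma models did not move in 1 direction. Of 17 such miRNAs, all tested, 1 was called higher and 2 were called lower, beside 3.64% and 2.02% of all miRNAs tested. A positive log2 fold change was found for 8 of the 17, beside 55.5% of all miRNAs tested. Their median was -0.07, beside 0.13 over all miRNAs tested. With total miRNA reads as the scaling, 2 of the 17 were called higher and 1 lower, beside 22 and 1 of all 247 miRNAs tested. The miRNA called higher was miR-34a, a p53 target, with a log2 fold change between 1.73 and 6.27 (95% confidence interval, edgeR adjusted p = 0.0397). Those called lower were miR-150, a miRNA of mature lymphocytes that targets MYB, at -2.97 ± 0.50 (adjusted p = 0.00687), and miR-146a, a brake on NF-kB signaling, at -1.46 ± 0.35 (adjusted p = 0.0397). miR-146a was not called when edgeR scaled to total miRNA reads, at -0.80 (adjusted p = 0.209). miR-30d was at 1.26 (adjusted p = 0.101), let-7a at 0.31, miR-26a at -0.55 and miR-16 at -0.27, none of them called.

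The miR-148/152 family, known to target the maintenance methyltransferase DNMT1, lay on both sides of 0. miR-148a had a log2 fold change of -1.58 (edgeR adjusted p = 0.0806), miR-152 of -1.45 (adjusted p = 0.109) and miR-148b of 0.49 (adjusted p = 0.382), with a median of -1.45. Of these 3, edgeR called 0, beside 5.67% of all miRNAs tested, and 2 had an unadjusted p under 0.05, beside 26.7%. DESeq2 called miR-152 lower, at -1.50 (adjusted p = 0.0384), and limma voom called both miR-148a and miR-152 lower. With the Q30 range as a covariate, miR-148a was called lower at -2.80 (edgeR adjusted p = 0.0271) and miR-152 was at -0.76 (adjusted p = 0.605). Scaled to total miRNA reads, none of the 3 was called, with miR-148a at -0.96 and miR-152 at -0.44 (edgeR adjusted p = 0.0110 and 0.698). miR-152 is also among the stromal markers above.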

How the data were processed

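Small RNA libraries of 6 DLBCL and 4 healthy lymph nodes were grouped by their labels, and the members and the miRNA lists were chosen with earlier results of these data known. The authors mapped reads with Bowtie 0.12.9 (CanFam3.1, per the submitters' processing notes), removed other RNA classes and counted mature miRNAs of miRBase with a modified miRDeep2. They deposited raw read counts of 320 miRNAs per library, named mostly without an arm. The authors also deposited TPM values, which equal the counts scaled to each library's listed reads within 4.55e-05. Mapping and counting were not repeated, and mature sequences were not used here.

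Counts were fitted across all miRNAs with edgeR 4.0.16 in R 4.3.3 (TMM factors, default expression filter by group leaving 247 miRNAs, quasi-likelihood test, Benjamini-Hochberg adjustment, biological coefficient of variation 0.731), without covariates. CPM use the TMM-adjusted sizes, and log2 CPM add a prior count of 2. A miRNA was called at an adjusted p under 0.05 with a log2 fold change beyond 1 in either direction, as in the study. The study used DESeq2, run here as DESeq2 1.42.0 as an alternative beside limma 3.58.1. Ratios and sums were compared by exact permutation tests over the 10 libraries (scipy 1.17.1), adjusted over 4 tests, and correlations over the 720 pairings. Named are the members, the 3 miRNAs most like each, the other references, and, of each list, those called and up to 4 others. Alternatives covered scaling, filter, tool, Q30 range, replicate block and leaving out libraries. The edgeR and permutation scripts were tested on simulated data. P-values measure the spread between dogs.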

Additional observations from a re-analysis of the deposited data

How the results depend on the processing

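miR-29c was called in 4 of 23 alternatives: DESeq2 (1.96), limma voom with sample quality weights (1.71), the Q30 range as a covariate (2.95) and the lower Q30 range alone (2.94). In the others it stayed uncalled and positive, with adjusted p from 0.0119 to 0.395 over all 23, and from 1.42 to 2.25 when 1 library was left out. miR-29a reversed to 0.41 with total miRNA reads, 0.28 with limma trend on log2 of TPM plus 1, 0.20 with the Q30 range as a covariate and 0.19 in the lower Q30 range alone, never called, and ranged from -0.58 to -0.17 when 1 library was left out. miR-29b kept its sign and stayed uncalled in 23 of 23, from 0.14 to 1.44. The summed level reversed to 0.48 with total miRNA reads and to 0.47 in the lower Q30 range alone, with exact permutation p of at least 0.143 in every alternative. The 3 correlations within DLBCL kept their call with total miRNA reads, at 0.95 to 0.99. The cause of these changes was not tested.

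The number of miRNAs called moved from 14 to 8 with DESeq2 size factors (3 higher and 5 lower), 23 with total miRNA reads (22 and 1), 45 with DESeq2, 46 with limma voom, 7 with the Q30 covariate, 46 in the lower Q30 range alone and 26 without DLBCL 4 and 6 together, and it ranged from 1 without healthy library 4 to 23 without DLBCL 4 when 1 library was left out. It was 3 without DLBCL 1, 22 without DLBCL 3, and 2, 5 and 6 without healthy libraries 2, 3 and 5. The log2 ratios kept their call in 11 of 13 alternatives. These 11 only removed libraries from groups that did not overlap, which fixed the call in advance. In the lower Q30 range alone the log2 ratios were 2.85, 1.24 and 1.62 (miR-29c to miR-29a, miR-29b to miR-29a and miR-29c to miR-29b), in a design that cannot pass the threshold.

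Libraries with the same number came from different dogs, and their deviations from the group means correlated at 0.26, -0.01, -0.30 and -0.33 for numbers 2 to 5, so the numbers do not pair the samples. With the replicate block, which uses 4 libraries a group, 1 miRNA was called, the 3 ratios were 1.99, 0.91 and 1.08 (smallest exact p possible 0.125), and miR-29c was at 1.47.

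Scaling to miR-361 and miR-101, and leaving out DLBCL 4 and 6 together, were chosen after seeing the data; the former gave miR-29c 2.07 (edgeR adjusted p = 0.0820). The smallest count behind a member's level was 177 reads, of miR-29c.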
